A study of Mus musculus with 24 samples.

Results

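The difference between Lamp2a knockout (KO) and wild-type (WT) muscle stem cells that was shared by 3 stages of muscle repair was measured for each gene as the mean of the KO minus WT differences at days 0, 1 and 4. The mean used all 24 libraries, 12 KO against 12 WT, with day as a factor. Of 17111 genes in the deposited table, 16985 had 4 or more libraries at a value of 1 or above and were tested. The other 126 were not. At an adjusted p under 0.05 (limma, two-sided, Benjamini-Hochberg over all tested genes), the mean difference was called in 861 genes, 5.07% of those tested. Of these, 583 were higher in KO (3.43%) and 278 were lower (1.64%). Few of them differed at every day: 10 genes (0.0589%) passed at day 0, day 1, day 4 and in the mean with one sign, 9 higher and 1 lower.

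The cells were primary muscle stem cells isolated from mouse muscle, labelled L2A-WT or L2A-Pax7CreER. Muscle was uninjured (day 0) or taken 1 or 4 days after an injection of cardiotoxin (50 µL at 10 µM), which destroys myofibres. Each of the 6 groups had 4 libraries, all with batch label 1. In the KO mice, a Cre made under the control of Pax7, the transcription factor gene that marks these cells, was used against Lamp2a. The titles name this Cre for the KO alone, and no group is labelled as Cre with intact Lamp2a, so effects of the Cre allele and of Lamp2a loss cannot be told apart. The agent that switched the Cre on, the age and the sex of the mice are not given in the sources used here. The labels do not say whether a replicate is an animal of its own, so p-values here measure only how much these libraries vary, a spread that could be technical.

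Chaperone-mediated autophagy brings single proteins to the lysosome: HSC70 binds a short motif in the protein, and LAMP2A, a splice form of the Lamp2 gene, receives it at the lysosomal membrane. Muscle stem cells rest between myofibres, enter the cell cycle after damage and then fuse into new fibres. Days 0, 1 and 4 thus sample cells at rest, soon after damage and during regrowth.

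The table sums the splice forms of Lamp2, so its level does not check the loss of Lamp2a. Lamp2 lay between 209 and 676 in the 3 WT group means and between 222 and 582 in the 3 KO group means, in the table's unit, a scaled count per 1 M reads. Its mean difference was -0.08 ± 0.09 on the log2(value + 1) scale (SE; adjusted p = 0.743, limma), and KO and WT libraries overlapped at every day. All 10 muscle stem cell markers were detected. Summed, they lay at 2462 to 3304 in WT and 2902 to 3433 in KO at day 0. At day 1 the sums were 3410 to 4728 and 3044 to 3820, and at day 4 1141 to 1278 and 1174 to 1312. Of the 10, 1 rose and 3 fell in the mean, where 3.43% of all tested genes rose and 1.64% fell. At day 1, 2 of the 10 rose and 5 fell, beside 7.12% and 2.08% of all tested genes. The 20 macrophage and monocyte markers summed to 9.8 to 113 at days 0 and 1 in libraries of both genotypes. At day 4 they summed to 1563 to 2083 in WT and to 1359 to 1524 in KO, so each KO library lay below each WT library. Of the 20, 0 rose and 2 fell at day 4, beside 0.53% and 0.524% of all tested genes. The part of such cells in the day 4 results was not tested. Library totals lay between 11.58 and 22.47 M counts. The deposited values summed to 0.872 to 0.917 M in WT and 1.066 to 1.124 M in KO at day 1. At day 4 they summed to 0.773 to 0.859 M and 1.128 to 1.345 M, and at day 0 the genotypes overlapped. Genes detected were 15745 to 15899 in WT and 14881 to 15063 in KO at day 1, and 16414 to 16547 and 15508 to 16174 at day 4. The part of these differences in the calls was not tested.

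Of the 861 genes called by the mean, 546 (63.4%; 3.21% of tested genes) had the same sign at all 3 days, 357 higher and 189 lower. Among all tested genes 4030 (23.7%) had one sign, and because the mean is built from the same 3 values, this excess is a description. The size of the difference also changed with day: an F test of the genotype-by-day terms was passed by 1993 genes (11.7%), of which 1543 (77.4%) were not called by the mean. Setting these apart left 384 genes (2.26%) with one sign, a called mean and no called change over days, 236 higher and 148 lower. Their median size was 0.70 on the log2 scale, with a range of 0.20 to 4.56. Of the 384, 86 passed at no single day, 246 at 1, 47 at 2 and 5 at all 3.

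The single days stood far apart in how many genes they called. At day 0, 819 genes were higher in KO (4.82%) and 837 lower (4.93%). At day 1, 1209 were higher (7.12%) and 353 lower (2.08%). At day 4, 90 were higher (0.53%) and 89 lower (0.524%). The day 1 counts were 732 and 264 under quantile normalization, 1168 and 239 under edgeR on the recovered counts and 1127 and 622 under DESeq2. Those of day 4 were 111 and 122, 60 and 25, and 146 and 84 in the same order. Those of day 0 were 639 and 622, 772 and 775, and 1315 and 1221. The mean is thus drawn mostly from days 0 and 1: of the 861 genes, 363 were called at day 1 alone, 194 at day 0 alone, 105 at days 0 and 1, 37 at day 4 alone, 34 at days 1 and 4 and 9 at days 0 and 4.

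The 3 day comparisons share no library. Of 311 genes called at both day 0 and day 1, 191 had opposite signs and 120 the same, the latter being 7.25% of the day 0 calls and 7.68% of the day 1 calls. Day 1 and day 4 had 63 genes in common, 50 of the same sign, which is 3.2% of the day 1 calls and 27.9% of the day 4 calls. Days 0 and 4 had 40 in common, 25 of the same sign. Across all tested genes, the differences at days 0 and 1 had a Pearson r of -0.075 and a Spearman rho of -0.131, those at days 1 and 4 of 0.137 and 0.116, and those at days 0 and 4 of -0.016 and -0.040. Genes within a library are not independent, and these values are descriptions.

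**Figure D1:**
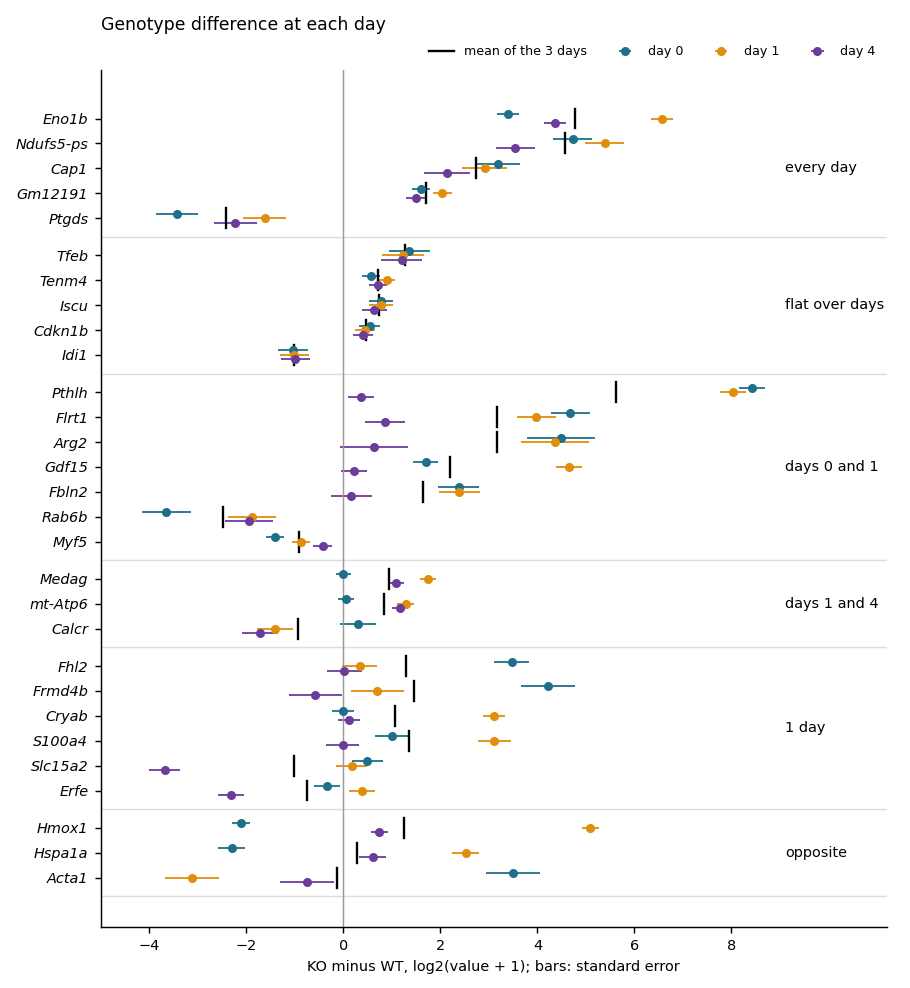
KO minus WT difference on the log2(value + 1) scale (x axis) at day 0, 1 and 4 (coloured points, bars are standard errors) and as the mean of the 3 days (black ticks), for genes named in the text, grouped by the days at which they passed. The points of the flat genes lie together, and those of Hmox1, Hspa1a and Acta1 lie on both sides of 0.

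Of the 9 genes that were higher in KO on every day, 6 had at least 96.0% identical bases with a protein-coding gene elsewhere, by alignment of GENCODE M21 transcripts, and are called copies here. Sequences of 2 of these copies are given beside the gene each resembles, because the few bases that differ are all that a read can use to tell copy from gene. The transcripts come from GENCODE M21 on GRCm38, and each line is 90 coding bases, 5′ to 3′ on the transcript's strand, with the differing bases in capitals. Ndufs5 encodes a subunit of respiratory complex I and lies on chromosome 4, and its processed pseudogene Ndufs5-ps lies on chromosome 16.
Ndufs5: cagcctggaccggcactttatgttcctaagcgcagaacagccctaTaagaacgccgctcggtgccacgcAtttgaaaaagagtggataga
Ndufs5-ps: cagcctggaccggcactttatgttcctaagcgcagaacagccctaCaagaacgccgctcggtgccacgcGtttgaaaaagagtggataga
Hmgn2, on chromosome 4, encodes a nucleosome-binding protein, and Gm10282 lies on chromosome 8.
Hmgn2: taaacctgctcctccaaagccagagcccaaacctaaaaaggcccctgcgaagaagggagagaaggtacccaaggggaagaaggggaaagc
Gm10282: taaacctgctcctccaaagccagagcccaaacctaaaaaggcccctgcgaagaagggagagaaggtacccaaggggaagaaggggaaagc
Counted from the first base of the gene's coding sequence, Ndufs5-ps differs from Ndufs5 by T81C and A105G, the only differences over 318 aligned coding bases. Gm10282 has no difference from Hmgn2 over 270 coding bases, so reads within them cannot be told apart, and the transcripts differ outside the coding sequence.

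Eno1b (ENSMUSG00000059040), annotated as protein coding and near-identical to the glycolytic enzyme gene Eno1 (99.5% over 1652 aligned bases), had the largest mean difference among the genes called at every day on the log2(value + 1) scale. The order depends on that scale, which compresses low genes: DESeq2 gave Eno1b 4.98 and Eif3s6-ps2 8.05, Gm10036 8.02, Gm7125 7.17, Ndufs5-ps 6.26 and Gm17711 6.06. Its value in the WT libraries was 2.79, 4.63, 5.74 and 3.36 at day 0, 12.3, 8.65, 7.9 and 6.97 at day 1 and 5.07, 3.76, 3.25 and 5.6 at day 4. The KO libraries held 53.5, 36.1, 65.7 and 56.1 at day 0, 908, 948, 1033 and 836 at day 1 and 91.1, 116, 118 and 111 at day 4. Every KO library was above every WT library of its day. The difference was 3.40 ± 0.23, 6.57 ± 0.23 and 4.36 ± 0.23 at days 0, 1 and 4, and 4.78 ± 0.13 in the mean (adjusted p = 2.8e-18, limma). It varied by day (adjusted p = 1.26e-06, F test in limma), with the greatest size at day 1.

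Eno1 itself went the other way, by -0.89 ± 0.09 in the mean (adjusted p = 2.04e-07, limma), and was called lower at days 0 and 4 (-1.09 ± 0.15 and -1.41 ± 0.15). Reads of the pair may be divided between them by the counting, so each value alone is uncertain. The sum of the pair at day 0 was 267 ± 39.2 for WT (SD over 4 libraries) and 177 ± 30.4 for KO, 1734 ± 117 and 2465 ± 153 at day 1, and 522 ± 91.1 and 304 ± 34.2 at day 4. Summed, the pair was thus lower in KO at days 0 and 4 and higher at day 1, with no test made of the sums. A further processed pseudogene, Gm5855, which is 96.5% identical to Eno1b, was at 0 counts in every WT library and at 26, 891 and 74 counts over the KO libraries of days 0, 1 and 4. Against a floor of 3 counts per library it was at least 67.4-fold higher at day 1.

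Ndufs5-ps was close to absent in WT. Its WT values were 0.0344, 0.0365, 0.0385 and 1.89 at day 0, 0.27, 0.298, 0.0234 and 0.0246 at day 1 and 3.34, 1.04, 0.0287 and 0.259 at day 4. Its KO values were 32.6, 29.4, 32.4 and 46 at day 0, 53.4, 44.4, 40.8 and 51.1 at day 1 and 19.5, 21, 20.9 and 20.4 at day 4. The groups were apart at all 3 days, although 1 WT library of day 0 stood above the other 3. The mean difference was 4.56 ± 0.23 (adjusted p = 1.27e-12, limma), and its change over days was not called (adjusted p = 0.078). Under edgeR and DESeq2 it did not pass at every day. The parent gene Ndufs5 had a mean difference of -0.14 ± 0.12 (adjusted p = 0.598). The sum of the pair was 56.7 ± 15.3 in WT and 111 ± 22.4 in KO at day 0, 140 ± 23.9 and 151 ± 20.2 at day 1, and 67.8 ± 15 and 68.5 ± 3.19 at day 4.

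Gm10036, a processed pseudogene 99.3% identical to the ribosomal protein gene Rpl11, had no count in the 4 WT libraries of day 0, 17 counts over those of day 1 and 18 over those of day 4. The KO libraries held 21.3, 23.3, 23 and 32.2 at day 0, 40, 37, 32.9 and 41.7 at day 1 and 13.9, 13.2, 14.2 and 16.1 at day 4. At day 0 it was at least 92.5-fold higher in KO, against a floor of 3 counts per library. Its mean difference was 4.40 ± 0.16 (adjusted p = 1.03e-15, limma) and varied by day (adjusted p = 0.0346), but with a WT group at 0 the fitted size depends on the pseudocount of 1. Rpl11 had a mean difference of 0.15 ± 0.09 (adjusted p = 0.447).

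Gm12191, a processed pseudogene of the ribosomal protein gene Rpl30, was well expressed in both genotypes. Its WT values were 69.3, 57.2, 60.2 and 52.9 at day 0, 70.7, 50.4, 50 and 50 at day 1 and 37.7, 25.5, 24.7 and 32.5 at day 4. Its KO values were 173, 141, 164 and 281 at day 0, 242, 217, 194 and 266 at day 1 and 83.8, 85.6, 84.6 and 87.5 at day 4. KO lay above WT at each day without overlap, by 1.60 ± 0.19, 2.04 ± 0.19 and 1.49 ± 0.19, with a mean of 1.71 ± 0.11 (adjusted p = 1.87e-10, limma) and no called change over days. Its parent Rpl30 had -0.19 ± 0.10 (adjusted p = 0.342). Gm10282 rose by 2.93 ± 0.20 beside -0.35 ± 0.12 for Hmgn2 (adjusted p = 0.0912). Eif3s6-ps2, 96.0% identical to the translation initiation factor gene Eif3e, rose by 2.61 ± 0.17, and Eif3e had 0.04 ± 0.12. Eif3s6-ps2 was at 0 counts in WT at days 0 and 4, where it was at least 20.9-fold and at least 7.12-fold higher in KO.

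Of the 3 other genes higher at every day, Cap1 (ENSMUSG00000028656), which encodes a protein that recycles actin monomers, was the only protein-coding one. Its WT values were 22.6, 3.17, 0.577 and 3.29 at day 0, 11.1, 14.6, 20.9 and 17.6 at day 1 and 14.7, 10.9, 12.6 and 16.2 at day 4. Its KO values were 53.9, 37, 56.9 and 36.2 at day 0, 138, 128, 148 and 91.6 at day 1 and 60.9, 59.2, 72.7 and 58.4 at day 4. All KO libraries exceeded all WT libraries of their day. The difference was 3.18 ± 0.47, 2.91 ± 0.47 and 2.14 ± 0.47 (mean 2.74 ± 0.27, adjusted p = 1.93e-07, limma). It no longer passed at every day under edgeR, with each day fitted alone, or without WT day 4 replicate 2 or 3 or KO day 4 replicate 3, and DESeq2 gave it no adjusted p. The remaining pair were low: Gm7125, a long noncoding RNA, and Gm17711, a pseudogene, had WT totals of 0 to 2 counts per day, and KO totals of 80, 604 and 95 and of 56, 53 and 95 counts. Gm17711 was called at every day in 13 of the 35 alternative fits that tested it, Eif3s6-ps2 in 31 and Gm7125 in 32 of 35, and Gm10282 in 35 of 36. Eno1b, Gm10036 and Gm12191 were called at every day in all 36.

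Ptgds, which encodes a prostaglandin D2 synthase, was the only gene lower in KO at every day. Its WT values were 43.6, 45.9, 68.6 and 49.2 at day 0, 13.2, 11.8, 8.98 and 6.97 at day 1 and 3.62, 5.12, 5.14 and 2.9 at day 4. The KO values were 5.21, 4.04, 2.46 and 4.06 at day 0, 2.69, 6.07, 5.03 and 0.0267 at day 1 and 0.118, 0.0411, 0.0341 and 0.162 at day 4, with 3 counts in all at day 4. No KO library reached the lowest WT library of its day. The difference was -3.43 ± 0.44, -1.62 ± 0.44 and -2.23 ± 0.44, and the mean -2.43 ± 0.26 (adjusted p = 6.34e-07, limma). It was called at every day in 28 of 36 alternative fits. It was not under edgeR, DESeq2, quantile normalization, each day fitted alone or a pseudocount of 5, nor without WT day 1 replicate 1 or 2 or KO day 1 replicate 4.

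**Figure D2:**
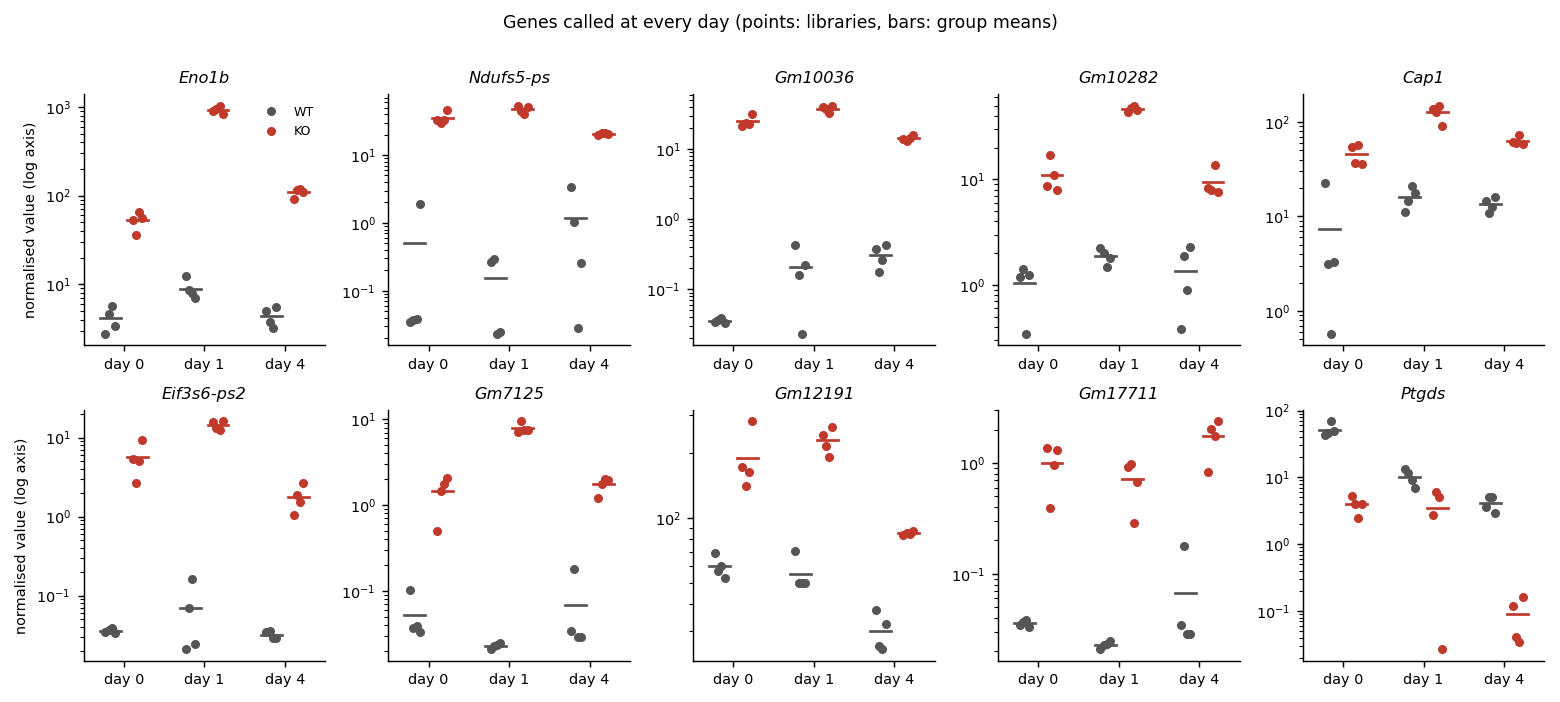
Normalised value (y axis, log scale, own range in each panel) of the 10 genes called at every day, by day and genotype, with 1 point per library (4 per group) and a bar at the group mean. KO points lie above WT points at every day in 9 panels and below them for Ptgds.

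In all, 24 genes (0.141%) had every KO library on one side of every WT library at each of the 3 days, 18 higher and 6 lower in KO. The 24 were the 10 genes above and 14 more, and all of them were called by the mean. Among the 14 was Cdkn1b, which encodes the cell cycle inhibitor p27. Its WT values were 24.4, 23.1, 20.1 and 26.8 at day 0, 11.6, 9.75, 10.2 and 10.2 at day 1 and 18.8, 13.8, 21 and 17.6 at day 4, and its KO values 29.8, 36, 32 and 41.6 at day 0, 14.1, 11.9, 17.3 and 15.2 at day 1 and 22.2, 26.8, 23.3 and 22.9 at day 4. The shift was small, 0.54 ± 0.21, 0.44 ± 0.21 and 0.41 ± 0.21, passed at no single day, and passed in the mean (0.46 ± 0.12, adjusted p = 0.0238, limma), a call lost in 4 of 36 alternative fits, 1 of them without WT day 4 replicate 2. Rab6b, a GTPase gene of Golgi transport, lay below WT throughout. It had KO values of 0.763, 0.0358, 4.28 and 0.0457 at day 0 and 2.47, 0.888, 2.69 and 0.0267 at day 1 against WT values of 13.7, 10.3, 38.1 and 37.1 at day 0 and 7, 7.23, 7.29 and 7.31 at day 1. At day 4 all 4 KO libraries had 0 counts beside WT values of 2.38, 4.05, 3.07 and 2.67, at least 10.6-fold lower in KO at a floor of 3 counts per library. The other non-overlapping genes included Tenm4, a teneurin adhesion gene (0.72 ± 0.10), the AP-1 factor Jund (0.63 ± 0.14), the protocadherin Pcdh17 (-1.13 ± 0.21), the methionine salvage gene Mtap (-1.02 ± 0.25) and Alg3, a mannosyltransferase gene of N-glycan assembly (-1.24 ± 0.29). Cdkn1b, Rab6b, Pcdh17 and Mtap fell outside the naming rule, as did the Gm genes, Atp1b4, Flrt1, Oxtr and Inf2, and were chosen after their values were seen.

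Pseudogenes that closely match an expressed gene were examined as a class. By alignment, 389 tested pseudogenes had at least 90% identical bases with a protein-coding gene over at least 80% of their transcript, and 33 were higher by the mean and 5 lower, a share higher of 8.48% beside 3.43% of all tested genes. Of the 25 whose closest gene is on chromosome 4, 6 were higher (24%), and 5 of those 6 were higher at 2 or more days. Of the other 364, 27 were higher (7.42%), 6 at 2 or more days. Chromosome 5 held the closest gene of 29 copies, of which 6 were higher (20.7%), 2 of them at 2 or more days. The share higher was above that of chromosome 4 for chromosome 14, with 3 of 11 (27.3%), and for the mitochondrial genome, with 2 of 6 (33.3%), and none of those 5 was higher at 2 or more days. The chromosome was looked at after the every-day genes were seen, so these shares are descriptions.

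The 6 higher pseudogenes with a closest gene on chromosome 4 included Ndufs5-ps, Gm10036 and 3 copies of the deacetylase gene Hdac1, while Eno1b and Gm10282 are annotated as protein coding and are not counted. Gm10093, Gm4864 and Gm5824, at 99.4%, 94.3% and 96.3% identity to Hdac1, rose by 2.36 ± 0.27, 1.72 ± 0.15 and 1.07 ± 0.15 in the mean. All 3 passed at days 0 and 1 and none at day 4, and they held 0 to 5 counts in each WT group, so these sizes depend on the pseudocount. Hdac1 had -0.26 ± 0.15 (adjusted p = 0.39, limma). Off chromosome 4, Rbpj-ps3, 99.7% identical to the NOTCH effector gene Rbpj, rose by 2.25 ± 0.28, with Rbpj at -0.20 ± 0.10. Gm8730, 98.7% identical to Rplp0, was the exception in time: 6 and 61 counts in WT and KO at day 0, 14 and 112 at day 1, and 6 and 3637 at day 4.

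The places of the called genes themselves were counted as well. On chromosome 4, 52 of 937 tested genes (5.55%) were called by the mean beside 5.07% of all. Of the 10 every-day genes, only Cap1 lies there, and 3 of the 10 lie on chromosome 18, which holds 2.71% of the tested genes. In the order of tested genes along chromosome 4 (GENCODE M21, GRCm38), Cap1 lay 245 places from Pax7, Ndufs5 235, Hdac1 162, Hmgn2 86 and Rpl11 47 on one side, and Eno1 91 on the other. Of the 20 tested genes nearest to Pax7, 1 was called, Nbl1, and of the 20 nearest to Lamp2, 1, Atp1b4, lying 2 places from it.

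**Figure D3:**
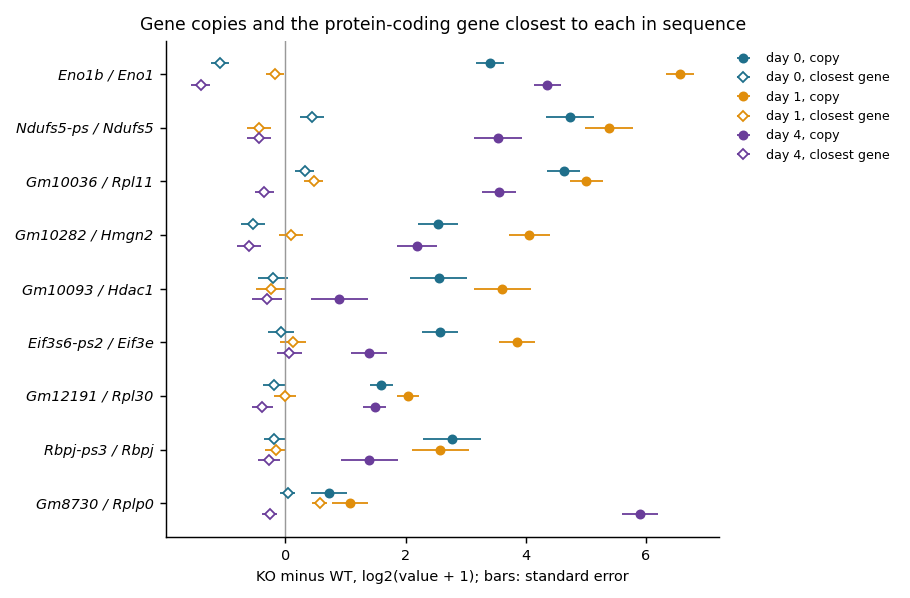
KO minus WT difference on the log2(value + 1) scale (x axis, bars are standard errors) at each day for 9 copies (filled circles) and the closest protein-coding gene of each (open diamonds). The circles lie to the right of the diamonds in every pair and at every day, and Eno1 lies below 0 at days 0 and 4.

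Genes with near-equal differences at each day, although not called at all of them, described the steady part of the knockout effect. Tfeb, which encodes the transcription factor that drives lysosome and autophagy genes, had WT values of 2.44, 0.182, 3.19 and 0.299 at day 0, 1.23, 1.72, 3.12 and 1.55 at day 1 and 1, 3.54, 1.81 and 1.58 at day 4. Its KO values were 3.62, 3.9, 6.93 and 4.43 at day 0, 2.64, 4.87, 8.94 and 8.05 at day 1 and 5.85, 4.97, 5.29 and 6.13 at day 4. The groups were apart at days 0 and 4 and overlapped at day 1. The difference was 1.36 ± 0.43, 1.23 ± 0.43 and 1.20 ± 0.43, with a mean of 1.26 ± 0.25 (adjusted p = 0.00246, limma). Only day 0 passed by itself, and it lost that call in 22 of the 35 alternative fits that tested Tfeb, while the mean was called in all 35.

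Idi1, an isomerase of the mevalonate pathway to sterols, was the mirror image. WT libraries held 128, 84.3, 109 and 213 at day 0, 344, 347, 350.5 and 313 at day 1 and 22.6, 24.2, 9.22 and 19.1 at day 4. KO libraries held 49.7, 84.4, 39.8 and 82.2 at day 0, 183, 159, 204 and 133 at day 1 and 8.68, 7.36, 6.18 and 12.4 at day 4. KO was below WT without overlap at day 1 only, and the difference was -1.04 ± 0.30, -1.01 ± 0.30 and -0.99 ± 0.30, mean -1.01 ± 0.17 (adjusted p = 0.000507, limma). Its mean was called in all 36 alternative fits, its day 0 call was lost in 6 and its day 1 call in 8, the latter with 7 of the 8 day 1 libraries left out in turn. Of 24 sterol synthesis genes, 3 fell in the mean and 0 rose: Idi1, the methylsterol oxidase gene Msmo1 (-0.85 ± 0.20) and the demethylase gene Cyp51 (-0.72 ± 0.20). Of all tested genes, 1.64% fell in the mean and 3.43% rose. The call of Cyp51 was lost in 13 of 36 alternative fits, 9 of them with 1 library left out. The median of the list was -0.23 in the mean and -0.35, -0.22 and -0.25 at days 0, 1 and 4, against -0.008 for the mean over all tested genes.

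Other steady genes passed in the mean on small differences at each day. Iscu, a scaffold of iron-sulfur cluster assembly, rose by 0.73 ± 0.14, with 0.77 ± 0.25, 0.78 ± 0.25 and 0.64 ± 0.25 by day. The genes that passed at no single day included Dclk3, a kinase gene (1.09 ± 0.30), Lonrf3 (1.05 ± 0.26) and the pyruvate dehydrogenase phosphatase gene Pdp2 (1.10 ± 0.30). On the lower side were the imprinted noncoding RNA H19 (-1.21 ± 0.30), the interferon-induced gene Oasl2 (-1.39 ± 0.39) and Rrm2, a ribonucleotide reductase subunit needed for DNA synthesis (-0.90 ± 0.23). The adjusted p of these 6 ran from 0.0144 for Lonrf3 to 0.0365 for Oasl2 (limma). These calls depended on the fit: of 36 alternative fits, Oasl2 lost its call in 19, Dclk3 in 8, Pdp2 in 5, H19 in 2, Lonrf3 in 1 and Rrm2 in 0, among them fits with 1 library left out for Oasl2, Dclk3 and Pdp2.

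The next set of shared genes was called at days 0 and 1 and not at day 4. It held 105 genes, 83 higher and 22 lower in KO. Among the 83, the median difference was 1.27 at day 0, 1.32 at day 1 and 0.05 at day 4, and 56 varied by day in the F test. Among the 22, the medians were -1.20, -1.39 and -0.17, and 9 varied. At day 4, 49 of the 83 and 17 of the 22 kept their sign, so a missing call there does not mean equal levels. The choice of the set fixes that day 4 is smaller. It also favours a fall at day 4 in the genotype that was high before, so the levels that follow are descriptions. In 50 of the 83, the KO mean of day 4 lay below both earlier KO means while the WT mean of day 4 did not exceed both of its own. In 17, the WT mean of day 4 lay above both earlier WT means and the KO mean was not below its own. Both held in 12 and neither in 4. In 12 of the 22 lower genes, only the WT mean of day 4 lay below both earlier means of its genotype. In 6, only the KO mean of day 4 lay above both of its own. Both held in 2 and neither in 2.

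Pthlh, which encodes parathyroid hormone-related protein, a secreted ligand, led this set. Its KO values were 620.2, 464, 614 and 623 at day 0 and 369.9, 464, 427 and 448 at day 1, against WT values of 0.585, 0.401, 0.5 and 1.36 at day 0 and 0.27, 0.344, 0.258 and 2.29 at day 1. At day 4 WT stood at 76.8, 58.5, 103 and 97.6 and KO at 89.7, 127, 134 and 84.1, so the groups overlapped. The differences were 8.43 ± 0.27, 8.03 ± 0.27 and 0.37 ± 0.27, and varied by day (adjusted p = 2.62e-13, limma). Its receptor gene Pth1r had a called mean (1.20 ± 0.25) and passed at day 1 alone.

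Flrt1, an adhesion and FGF signalling gene, held 120.3, 20.5, 28.3 and 82.2 in KO and 0.654, 2.08, 0.192 and 1.43 in WT at day 0. At day 1 it held 21, 23.1, 30.7 and 20.1 in KO and 0.851, 0.895, 0.164 and 0.418 in WT. At day 4 it held 83.4, 84.5, 96.2 and 68.4 in KO and 48.4, 39.8, 52 and 40.7 in WT, where KO still lay above WT without overlap although the difference of 0.86 ± 0.41 did not pass. For Arg2, the mitochondrial arginase gene, the KO level at day 4 lay below the earlier ones instead: KO held 148, 197, 134 and 129 at day 0, 70.6, 43.1, 55.8 and 67.3 at day 1 and 18.3, 7.44, 5.29 and 1.91 at day 4, beside WT at 17.1, 27, 2.43 and 0.166 at day 0, 0.768, 4.75, 1.38 and 1.85 at day 1 and 3.07, 1.83, 3.82 and 8.31 at day 4. Its differences were 4.49 ± 0.70, 4.36 ± 0.70 and 0.63 ± 0.70. The oxytocin receptor gene Oxtr and the formin gene Inf2 were apart in all 3 days yet called at days 0 and 1 alone, with mean differences of 2.76 ± 0.22 and 1.97 ± 0.14. Oxtr had only 3 counts over the WT libraries of day 0 and 1 over those of day 1. The kallikrein gene Klk1 had 4433 and 2501 counts over the KO libraries of days 0 and 1 and 2 at day 4, where WT had 1.

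Extracellular matrix genes were counted next. Of 40 tested, 10 rose in the mean and 0 fell, with a median of 0.48, beside 3.43% of all genes higher and a median of -0.008. At day 0, 14 of 40 rose, at day 1 10 (5 under quantile normalization), and at day 4 1, with medians of 0.65, 0.50 and -0.03. Fbln2, which encodes the matrix glycoprotein fibulin 2, had KO values of 77.7, 89.7, 152 and 153 at day 0, 47.6, 65.1, 76.9 and 76.1 at day 1 and 53.2, 42, 105 and 22.3 at day 4. WT held 34.2, 16.6, 32.8 and 10 at day 0, 9.82, 5.39, 19 and 17.4 at day 1 and 45.7, 37.2, 34.7 and 57.5 at day 4. The groups were apart at days 0 and 1 and overlapped at day 4, and the differences were 2.38 ± 0.42, 2.39 ± 0.42 and 0.16 ± 0.42 (mean 1.64 ± 0.24, adjusted p = 0.000104, limma).

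Col3a1, a fibrillar collagen gene, showed the same course at a higher level. KO held 789, 703, 807 and 808 at day 0, 267, 282, 379 and 309.7 at day 1 and 609, 1036, 1467 and 514 at day 4, and WT 294, 270.2, 227 and 269.7 at day 0, 97.4, 121, 152 and 90.1 at day 1 and 714, 743, 608 and 986 at day 4. Its differences were 1.55 ± 0.23, 1.44 ± 0.23 and 0.15 ± 0.23, with overlap at day 4 only. Col1a1 rose by 1.58 ± 0.23 and Sparc, a collagen-binding protein gene, by 0.88 ± 0.10 in the mean. Col5a3, a collagen gene of quiescent muscle stem cells, rose by 0.82 ± 0.11. Markers of fibro-adipogenic progenitors, the main matrix-making cells of muscle, were counted beside these genes. Of 15, 3 rose in the mean (Col1a1, Col3a1 and Gsn), beside 3.43% of all tested genes, and 0 fell. On that marker list are also 5 of the matrix genes. Col1a1 and Col3a1 were given above as matrix genes, so the marker count and sums partly repeat the matrix result. The summed marker level was 971 to 1315 in WT and 2184 to 2613 in KO at day 0, 883 to 1269 and 1734 to 2488 at day 1, and 1878 to 2727 and 1423 to 3766 at day 4. Pdgfra, which defines those cells, was at 0 counts in every WT library of day 0 and at 27 counts over the 4 KO libraries. It held 5 and 235 counts over the WT and KO libraries of day 1 and 393 and 382 over those of day 4. In KO, 1 library stood above the rest on each early day, with values of 1.76, 0.0358, 0.0276 and 0.137 at day 0 and 0.472, 0.024, 0.6 and 11.6 at day 1. Its mean difference of 0.49 ± 0.33 did not pass (adjusted p = 0.497, limma). Both count models, edgeR and DESeq2, called Pdgfra higher in KO in the mean, by 3.69 under DESeq2 (adjusted p = 0.00727). Smooth muscle and pericyte markers were also apart, at 594 to 706 in WT and 828 to 1288 in KO at day 0 and at 865 to 1233 and 1461 to 1963 at day 1, and 1 of 13 rose in the mean. Schwann and glial markers summed to 483 to 724 in WT and 801 to 957 in KO at day 0, with 0 of 13 called by the mean. At day 1 their sums lay the other way, at 453 to 526 in WT and 316 to 396 in KO, and at day 4 they overlapped. Tenocyte markers, of another matrix-making cell, summed to 521 to 827 in WT and 833 to 1025 in KO at day 0, and at day 1 lay the other way, at 1196 to 1327 in WT and 221 to 276 in KO. The tenocyte list shares Chodl with the muscle stem cell list. Chodl was the only 1 of 5 tested tenocyte markers called lower at day 1 (-2.39), so that sum does not speak for tenocytes as such. The part of these cells in the matrix result was not tested. In bulk samples, fewer cells of a type and less RNA per cell cannot be told apart.

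Of 28 p53 targets, 6 rose in the mean and 0 fell, beside 3.43% and 1.64% of all tested genes. Cdkn1a, which encodes the cell cycle inhibitor p21, rose by 0.48 ± 0.06 (0.89 ± 0.11, 0.84 ± 0.11 and -0.29 ± 0.11 by day), and its day 4 libraries were apart in the opposite direction without a call. Gdf15, a stress-induced cytokine gene, rose by 2.19 ± 0.15 and the death receptor gene Tnfrsf10b by 0.96 ± 0.17. Lower genes of days 0 and 1 included the matrix protease Adamts5 (-1.22 ± 0.23) and the mTOR inhibitor Deptor (-0.68 ± 0.12).

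Myf5, a myogenic determination factor, was the only 1 of 20 myogenic transcription factors called by the mean, near the share of 5.07% over all tested genes. WT held 85.5, 115, 116 and 128 at day 0, 262, 179.7, 292 and 204 at day 1 and 27.7, 36.6, 29.1 and 29.5 at day 4. KO held 39.3, 38.5, 31.3 and 58.6 at day 0, 109.5, 149.6, 118 and 124 at day 1 and 24.1, 22.6, 21.9 and 21.2 at day 4. KO lay below WT at all 3 days without overlap, by -1.41 ± 0.19, -0.88 ± 0.19 and -0.43 ± 0.19, and by -0.91 ± 0.11 in the mean (adjusted p = 7.6e-06, limma). The change over days was not called (adjusted p = 0.0508). Pax7 had -0.32 ± 0.13 in the mean (adjusted p = 0.194) and was lower at day 1 alone (-1.39 ± 0.23), and Myod1 had 0.43 ± 0.17 (adjusted p = 0.179).

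**Figure D4:**
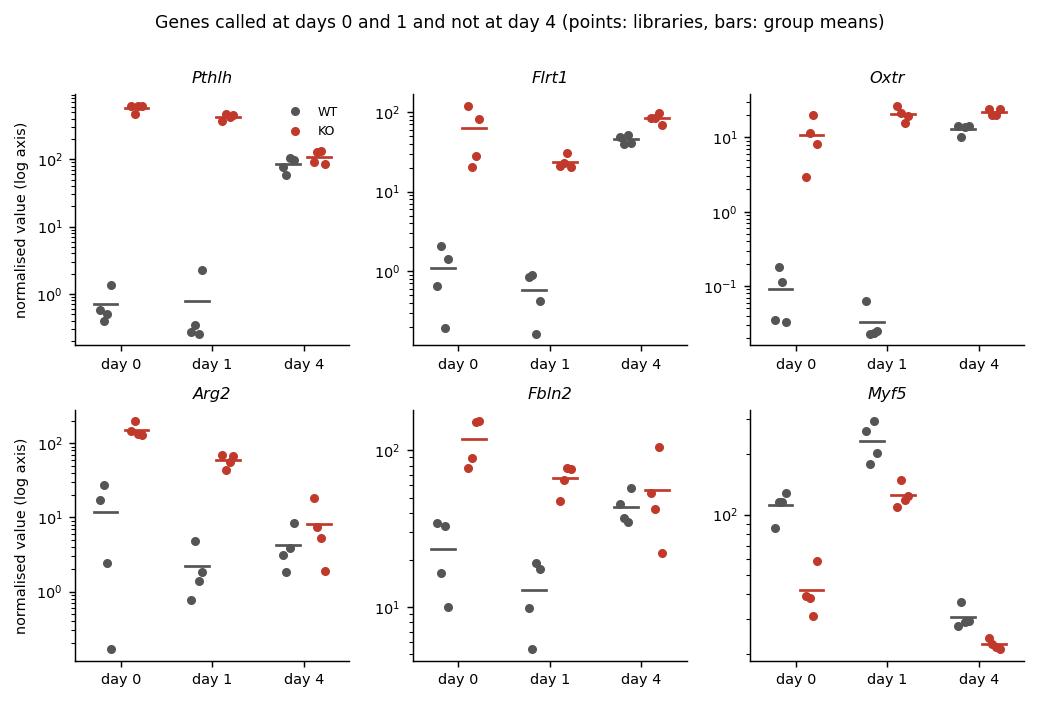
Normalised value (y axis, log scale, own range in each panel) of 6 genes called at days 0 and 1 and not at day 4, with 1 point per library (4 per group) and a bar at the group mean. In Pthlh, Flrt1 and Oxtr the WT mean of day 4 lies above both earlier WT means, and in Arg2 the KO mean of day 4 lies below both earlier KO means.

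Genes shared by days 1 and 4 were 34, of which 29 were higher in KO, mitochondrially encoded genes among them. Of 13 tested, 11 rose in the mean, 0 at day 0, 11 at day 1 and 11 at day 4, with medians of 0.68, 0.00, 1.13 and 1.08. Of all tested genes, 3.43% rose in the mean, 7.12% at day 1 and 0.53% at day 4. mt-Atp6, a subunit gene of the ATP synthase, had WT values of 17509, 22202, 19621 and 17902 at day 0, 5692, 4808, 3727 and 4536 at day 1 and 38140, 40425, 33687 and 38719 at day 4. KO held 19337, 16462, 15916 and 31206 at day 0, 13569, 10056, 8696 and 13627 at day 1 and 97568, 79148, 86177 and 77805 at day 4. KO overlapped WT at day 0 and lay above it at days 1 and 4, by 0.05 ± 0.17, 1.28 ± 0.17 and 1.17 ± 0.17. mt-Co1, a cytochrome oxidase subunit gene, rose by 0.83 ± 0.10 in the mean and the ribosomal RNA mt-Rnr2 by 0.76 ± 0.14.

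These genes took a large share of the reads, and their day 4 result depended on scaling. Their median share of counts was 8.09% in WT and 8.07% in KO at day 0, 3.01% and 5.28% at day 1, and 30.1% and 43.4% at day 4. Under quantile normalization, which forces the same distribution on each library, 6 of 13 rose in the mean, 10 at day 1 and 0 at day 4, with a day 4 median of 0.05. Medag, a gene of adipocyte differentiation, rose at days 1 and 4 (1.74 ± 0.16 and 1.08 ± 0.16) and had 0.00 ± 0.16 at day 0.

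Calcr, the calcitonin receptor gene that marks quiescent muscle stem cells, fell at days 1 and 4. WT held 212, 216, 236 and 181 at day 0, 78.1, 58.3, 81.9 and 87.6 at day 1 and 4.86, 10.5, 8.65 and 0.948 at day 4. KO held 224, 218, 279.8 and 327 at day 0, 38.9, 20.6, 27.9 and 27 at day 1 and 0.353, 1.03, 1.54 and 0.552 at day 4. The groups were apart at day 1 and overlapped at days 0 and 4. The differences were 0.30 ± 0.37, -1.41 ± 0.37 and -1.72 ± 0.37, with a mean of -0.94 ± 0.21 (adjusted p = 0.00803, limma). The day 1 call was lost without KO day 1 replicate 2, and the day 4 call without KO day 4 replicate 1 or WT day 4 replicate 2 or 3.

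Among the other gene lists, macroautophagy had 9 of 39 genes higher in the mean and 0 lower, with a median of 0.16, beside 3.43% of all tested genes higher. At day 1 13 rose (7.12% of all tested genes), at day 0 2 rose and 1 fell, and at day 4 0 changed. Sqstm1, the autophagy receptor p62, rose by 0.51 ± 0.08 in the mean and by 1.65 ± 0.14 at day 1, with -0.04 ± 0.14 and -0.08 ± 0.14 at the other days. The LC3 family genes Gabarapl1 and Map1lc3b rose by 0.68 ± 0.13 and 0.38 ± 0.07 and passed at day 1 alone, as did Rb1cc1, a subunit gene of the ULK1 complex (0.60 ± 0.14). Of the 39, 6 met the rule for a mean carried by 1 day.

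By the mean, 3.43% of all tested genes were higher and 1.64% lower, beside which the next lists may be read. Of 21 chaperone-mediated autophagy genes, 2 rose in the mean and 0 fell, with a median of 0.16, although under quantile normalization 1 rose and 2 fell. The list was not steady over days. At day 0, 3 rose and 5 fell, at day 1 7 rose and 0 fell, and 4 passed in opposite directions. Of all tested genes, 4.82% rose and 4.93% fell at day 0, 7.12% rose at day 1 and 1.21% passed in opposite directions. Under quantile normalization 3 of the 21 rose and 3 fell at day 0, 1 rose and 1 fell at day 1, and 1 passed in opposite directions. Of 42 lysosome genes, 3 rose and 1, the ceramidase gene Asah1 (-0.36 ± 0.10), fell, a call lost in 12 of 36 alternative fits, 9 of them with 1 library left out. Under quantile normalization 1 lysosome gene rose and 1 fell. NRF2 and antioxidant genes had 5 of 29 higher and 0 lower, among them the ferritin genes Fth1 (0.56 ± 0.05) and Ftl1 (0.61 ± 0.06). Only 1 of the 5 had one sign at all 3 days. Of the 29, 3 rose and 4 fell at day 0, 13 rose at day 1, and 4 passed in opposite directions (2 under quantile normalization). Ribosome biogenesis had 0 higher and 4 of 32 lower (9 under DESeq2), 15 being lower at day 0, where 4.93% of all tested genes were. DNA replication had 0 higher and 2 of 35 lower, and interferon response 0 higher and 3 of 26 lower, beside 1.64% of all tested genes lower.

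**Figure D5:**
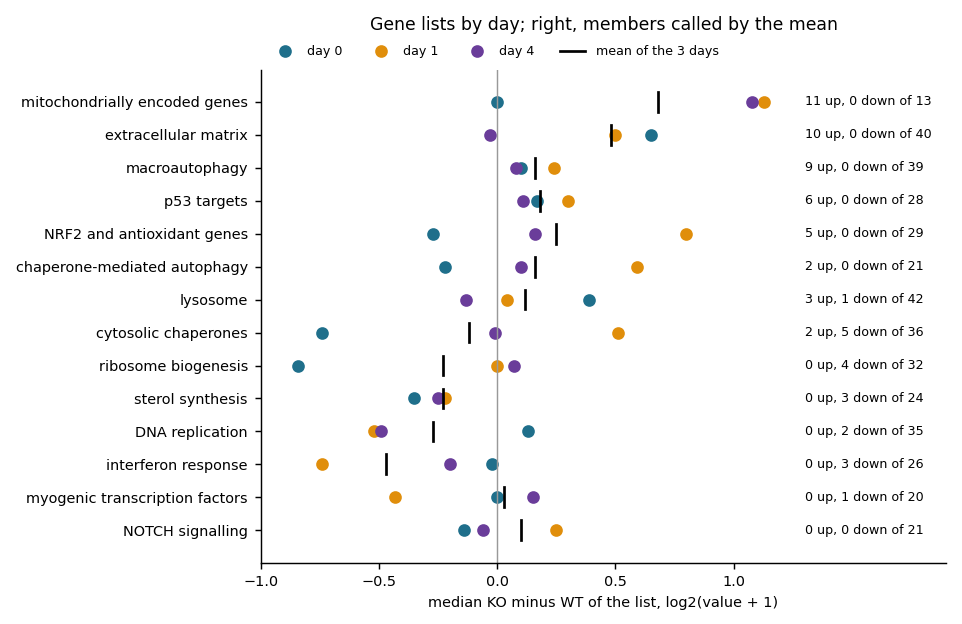
Median KO minus WT difference on the log2(value + 1) scale (x axis) of 14 gene lists at day 0, 1 and 4 (coloured points) and for the mean of the 3 days (black ticks), with the members called by the mean at the right. The sterol synthesis points lie together below 0, and the cytosolic chaperones lie at -0.74 at day 0 and 0.51 at day 1.

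A total of 251 genes (1.48%) had a mean carried by 1 day: they passed the F test, passed at exactly 1 day, and had estimates at the other days under 33.3% of that day in size. Day 1 carried 150 of them, 131 higher and 19 lower in KO, day 0 carried 76 (30 and 46), and day 4 carried 25 (9 and 16). For Fhl2, a LIM-domain cofactor gene, the KO values at day 0 were 18.9, 16.5, 7.48 and 7.9 beside WT values of 0.585, 0.0365, 0.0385 and 0.0332. At days 1 and 4 its group means were 7.34 ± 2.06 and 10.1 ± 2.69 in WT and 9.5 ± 2.01 and 10.6 ± 4.41 in KO. WT was thus near 0 at day 0 only, with 8 counts over 4 libraries, and the difference was 3.47 ± 0.36 at day 0, 0.34 ± 0.36 at day 1 and 0.02 ± 0.36 at day 4. Also carried by day 0 were Frmd4b (4.22 ± 0.55 at day 0), the transcobalamin receptor gene Cd320 (-3.27 ± 0.30, with 14 counts in KO), the folate enzyme gene Mthfd2 (-3.24 ± 0.50) and Polr1b, an RNA polymerase I subunit gene (-3.13 ± 0.41). The mean of Mthfd2 lost its call in 3 of 36 alternative fits, edgeR and DESeq2 among them. That of Frmd4b was lost in 2, edgeR among them, and those of Cd320 and Polr1b in 1 each.

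At day 1, Cryab, which encodes the small heat shock protein alpha B-crystallin, held 2067, 1560.3, 1621 and 1827 in KO and 229, 205, 192 and 193 in WT. At day 0 its group means were 1469 ± 187 in KO and 1490 ± 258 in WT, and at day 4 96.8 ± 51.8 and 82.4 ± 19.2. The WT level of day 1 thus stood apart from both levels of day 0, and the difference was 3.10 ± 0.23 at day 1 (1.07 ± 0.13 in the mean). S100a4, a calcium-binding protein gene, held 163, 143, 149.7 and 221 in KO and 26.9, 21.9, 10.9 and 17.9 in WT at day 1, and both genotypes met at day 4 (269 ± 61.1 and 269 ± 41.3). Its difference was 3.11 ± 0.34 at day 1 and -0.01 ± 0.34 at day 4. The retinoic acid hydroxylase gene Cyp26a1 rose at day 1 by 5.94 ± 0.68, and Chodl and Nppc, the C-type natriuretic peptide gene, had -2.39 ± 0.24 and -2.75 ± 0.35, both lower in KO. The mean of Chodl lost its call in 4 of 36 alternative fits, edgeR and quantile normalization among them, and those of Cyp26a1 and Nppc in 1 each.

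At day 4, Slc15a2, a peptide transporter gene, held 21, 19.9, 12.4 and 9.91 in WT and 0.275, 0.288, 0.307 and 0.162 in KO, with 12 counts over the KO libraries. At day 0 its group means were 108 ± 16.2 in WT and 164 ± 76.2 in KO, and at day 1 13.6 ± 2.55 and 15.9 ± 4.95. Its difference was -3.68 ± 0.32 at day 4, where the groups were apart, and 0.49 ± 0.32 and 0.17 ± 0.32 before. Erfe, which encodes the hormone erythroferrone, held 7.48, 13.1, 13.4 and 22.6 in WT and 1.3, 1.27, 1.67 and 3.67 in KO at day 4, a difference of -2.32 ± 0.27. Asns, the asparagine synthetase gene, fell at day 4 as well (-3.09 ± 0.40), and Plac9a rose (3.69 ± 0.42), although reads of Plac9a and its copy Plac9b may be divided between them. The mean of Asns lost its call in 4 of 36 alternative fits, edgeR and DESeq2 among them, while its day 4 call was kept in all 36.

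A total of 206 genes (1.21%) passed in opposite directions at 2 days. Of these, 183 were not called by the mean and 23 were. The count was 95 under quantile normalization, of which 80 were among the 206, and 117 with library weights, of which 46 were. In 163 of the 206, KO was lower at day 0 and higher at day 1, in 28 it was higher at day 0 and lower at day 1, and 15 had another pattern. Hmox1, the haem oxygenase gene, was among the 23. KO held 115, 160.1, 130.3 and 117 at day 0, 1676, 1333, 1732 and 1600.2 at day 1 and 411, 396, 409.9 and 259 at day 4, and WT 375, 563, 708 and 675 at day 0, 43.3, 47.8, 50.6 and 39.9 at day 1 and 180.5, 206, 259 and 228 at day 4. KO was below WT at day 0 and above at day 1 without overlap, and overlapped at day 4. The differences were -2.11 ± 0.18, 5.09 ± 0.18 and 0.74 ± 0.18, so the mean of 1.24 ± 0.10 (adjusted p = 1.46e-08, limma) describes no single day. The day 4 call (adjusted p = 0.0419) was lost in 15 of 36 alternative fits, most of them with 1 library left out.

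Cytosolic chaperones held many genes of this kind: of 36, 28 fell at day 0 and 0 rose, 17 rose at day 1 and 0 fell, and 14 passed in both. Of all tested genes, 4.93% were lower at day 0 and 7.12% higher at day 1. In the mean 2 rose and 5 fell. Under quantile normalization 23 fell at day 0, 9 rose at day 1, 6 passed in both, and 2 rose and 13 fell in the mean, and under DESeq2 8 fell in the mean. Hspa1a, an inducible HSP70 gene, held 137, 156, 222 and 281 in KO and 1028, 992, 918 and 846 in WT at day 0. At day 1 it held 433, 446, 888 and 317 in KO and 74.4, 72.1, 144 and 63.3 in WT, and at day 4 8.36, 9.99, 8.98 and 8.73 in KO and 7.27, 3.4, 6 and 6.41 in WT. The groups were apart in opposite directions at days 0 and 1, with differences of -2.30 ± 0.28 and 2.52 ± 0.28, and the mean was 0.27 ± 0.16 (adjusted p = 0.418, limma). Its close copy Hspa1b had -2.02 ± 0.27 and 2.64 ± 0.27, and reads may be divided between the pair. Hspa8, which encodes HSC70, had -0.60 ± 0.12 and 0.80 ± 0.12, although its day 1 value was -0.12 under quantile normalization. Hspd1, the mitochondrial chaperonin gene, fell at day 0 alone (-1.21 ± 0.14).

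Acta1, the skeletal muscle actin gene, went the opposite way. WT held 0.241, 0.109, 0.192 and 0.897 at day 0 and 89.5, 117, 125 and 82 at day 1, and KO 4.68, 46.6, 8.97 and 17.9 at day 0 and 36.7, 4.97, 7.27 and 9.54 at day 1. The differences were 3.50 ± 0.56, -3.12 ± 0.56 and -0.75 ± 0.56, with a mean of -0.13 ± 0.32 (adjusted p = 0.898, limma). Of the 15 mature myofibre markers, 4 rose at day 0, beside 4.82% of all tested genes, and 11 fell at day 1, beside 2.08%. By the mean 0 of the 15 were called in limma. Under quantile normalization 1 rose at day 0, 8 fell at day 1 and 1 was lower by the mean. With edgeR 5 rose at day 0 and 4 fell at day 1, and with DESeq2 7 and 9. Their summed level was 12.3 to 48.1 in WT and 43.6 to 88.1 in KO at day 0, and 211 to 295 and 21.5 to 66.3 at day 1. The part of myofibre RNA in these values was not tested. Tmem254b differed from both patterns, with 3.28 ± 0.52, -1.69 ± 0.52 and 2.87 ± 0.52 at days 0, 1 and 4, and its reads may be divided with its copies. The day 1 call of Tmem254b was lost in 13 of 36 alternative fits, 8 of them with a day 1 library left out.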

How the data were processed

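The kit was SMART-Seq v4, per the labels' protocols. The submitters' processing notes name FastQC, STAR, RSEM and limma, without versions or roles, and the build mm39. The deposited values are a linear normalised signal, found by testing the table to equal a whole count plus 0.5 over a scaled library size in M reads. Reading each library's lowest value as 0 counts turned 100% of values into whole counts within 0.02. A floor of 3 counts lies at a value of 0.145 to 0.32; it covers counting error alone, because reads lack molecular identifiers.

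Values were tested as log2(value + 1) with limma 3.58.1 in R 4.3.3, in 1 model of 6 group means with a mean-variance trend over 24 libraries, so fold changes of low genes are understated. The contrasts were KO minus WT at each day, their mean, and the F test of their change over days. Values after ± are the standard error for a difference and the SD for a group mean (n = 4). Genes were named by a rule: genes called at every day, carried by 1 day, of opposite call or called by the mean at no single day, by size among non-overlapping genes with a mean of at least 8, up to 4 members of each gene list by p, and genes fixed by name. Exceptions are said in the text. The members and the lists were chosen with earlier results of these data known. Gene types, chromosomes and transcripts were those of GENCODE M21 (GRCm38, not mm39), and coordinates are left out. The name table matched 17089 of 17111 identifiers. Reads of near-identical copies may be divided between them. Alternatives were other filters, pseudocounts of 0.5 and 5, quantile normalization, no trend, library weights, an additive model, each day fitted alone, means of day pairs, a replicate block, count models on the recovered counts (edgeR 4.0.16, DESeq2 1.42.0), and leaving out each library.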

Additional observations from a re-analysis of the deposited data

Results flagged for a closer look

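In 11 of 162 groups of 4 libraries behind genes given library by library, 1 library stood far from the other 3 by Dixon's test (gap to the nearest library over the whole range). Chance alone marks about 1 in 20 groups. The library values were 1.89 for Ndufs5-ps, 22.6 for Cap1, 0.585 for Fhl2 and 0.897 for Acta1 in WT at day 0, and 70.7 for Gm12191, 2.29 for Pthlh and 144 for Hspa1a in WT at day 1. In KO they were 464 for Pthlh at day 0, 36.7 for Acta1 at day 1, and 3.67 for Erfe and 259 for Hmox1 at day 4.

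The KO minus WT difference changed with day in the F test of limma (adjusted p over 16985 genes) for 17 of the genes given library by library. Among genes called at every day the adjusted p was 1.26e-06 for Eno1b and 0.0346 for Gm10036. Among those called at days 0 and 1 it was 2.62e-13 for Pthlh, 0.000124 for Flrt1, 0.0118 for Arg2, 0.0146 for Fbln2 and 0.00633 for Col3a1. For days 1 and 4 it was 0.00111 for mt-Atp6 and 0.019 for Calcr. For genes carried by 1 day it was 6.58e-05 for Fhl2, 2.16e-07 for Cryab, 0.000283 for S100a4, 7.2e-07 for Slc15a2 and 5.86e-05 for Erfe. For genes of opposite sign it was 6.16e-15 for Hmox1, 4.05e-08 for Hspa1a and 1.14e-05 for Acta1. Over all tested genes, 1993 passed this test.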

How the results depend on the processing

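Of 583 genes higher and 278 lower by the mean, an additive model left 239 and 92. The mean of days 0 and 4 called 274 higher, 162 of them among the 583. DESeq2 gave 555 lower, with a shift of -0.17 in its median of all genes at day 1. Genes higher at every day were 15 under DESeq2, and genes lower at every day 0 with each day fitted alone, under edgeR and with a pseudocount of 5, and 2 with library weights and a pseudocount of 0.5. Genes carried by 1 day were 421 under DESeq2. With each day fitted alone, day 0 calls were lost for Eno1, Arg2, Oxtr, Fbln2, Gdf15, Myf5, Frmd4b, Mthfd2 and Polr1b, among others. Their adjusted p there ran from 0.0518 for Myf5 to 0.151 for Mthfd2 (limma). Day 0 calls kept in that fit included those of Pthlh, Flrt1, Inf2, Col3a1, Fhl2, Cd320 and Hmox1. Genes of opposite sign were 117 with library weights, 130 without a trend and 95 under quantile normalization. By leave-one-out, there were 469 to 661 higher and 213 to 362 lower by the mean, 7 to 10 higher and 0 to 2 lower at every day, 1549 to 2208 varying by day, 195 to 304 carried by 1 day and 144 to 222 of opposite sign. The replicate block gave 578 and 272 by the mean, 9 and 1 at every day, 1961 genes whose KO minus WT difference varies by day, 246 carried by 1 day and 201 of opposite sign; same-numbered deviations correlated at -0.036 to 0.414 over 12 pairs, 1 over 0.1, and 6 of 24 libraries correlated best with their own number, so the samples share only a number. Signs reversed, all in uncalled values, for Acta1 (0.72 under DESeq2, 0.73 under edgeR, 0.06 with a pseudocount of 0.5, 0.03 without KO day 0 replicate 1, with a leave-one-out range of -0.31 to 0.03), Eif3e (-0.01 under DESeq2, -0.02 under quantile normalization, -0.06 without WT day 0 replicate 1, with a leave-one-out range of -0.06 to 0.10) and, under quantile normalization, Rplp0 (-0.01) and Hspa8 (-0.11). There Hspa8 at day 1 went to -0.12 and mt-Rnr2 at day 4 to 0.00, both called in limma on the deposited scale. The cause was not tested. Of 8816 values of single genes under alternatives, 8387 kept direction and side of the threshold, 412 lost the call and 6 gained it. Depth limits genes near 0, whose differences depend on the pseudocount.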

Other observations

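Ribosomal protein genes, looked at after their values were seen, rose in the mean in 48 of 76 and fell in 0, with 6 higher and 1 lower at day 0, 57 higher at day 1 and 0 at day 4. The medians were 0.33 in the mean and 0.22, 0.60 and 0.14 by day. Under quantile normalization 23 rose in the mean and 6 at day 1. Of 21 imprinted genes, 3 rose and 3 fell in the mean. Of 33 quiescence and stem cell genes, 5 rose and 2 fell. Beside these counts, 3.43% of all tested genes rose and 1.64% fell in the mean, and 7.12% rose at day 1.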
